A study of Arabidopsis thaliana with 10 samples.

Results

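Heat shock proteins and factors were followed here as 165 probe sets of the *Arabidopsis* ATH1 array, of 22810 on it. They are the probe sets that the study listed as heat shock genes and that the value table holds, without AT2G47470. Chaperones of the endoplasmic reticulum of the BiP, HSP90, calnexin and calreticulin types would have been left out as well, but the list named none. The annotation of the list placed 11 of the 165 among the heat shock transcription factors (HSFs), 70 among the J-domain proteins (also called DnaJ or HSP40), 10 among the HSP70s, 2 among the HSP90s and 6 among the small heat shock proteins. A further 25 were cyclophilins, 19 FK506-binding proteins (FKBPs) and 11 protein disulfide isomerase-like (PDI-like) proteins. The last 11 were 1 parvulin, 1 HSP60, 1 HSP100, 3 SMAX1-like proteins, 2 lipase class 3 proteins and 3 others. Each of 9 probe sets matched more than 1 locus and cannot assign its signal to a single gene.

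Heat shock proteins are molecular chaperones. Small HSPs bind unfolding proteins and hold them without the use of ATP, HSP70s bind and release clients in a cycle driven by ATP, J-domain proteins deliver clients to HSP70s and stimulate that cycle, and HSP90s act late in the folding of regulatory proteins. HSFs are the transcription factors that bind heat shock elements in the promoters of these genes, with the A class activating transcription and several members of the B class acting as repressors. Many chaperones also have constitutive forms that serve protein import and folding in unstressed leaves, so the annotation of a gene as a heat shock protein does not make it heat-inducible.

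The RNA came from leaves of 30-day-old plants grown in soil, with no stress treatment, under 8 h light and 16 h dark. The *oxt6* mutant (3 arrays) carries a T-DNA in At1g30460, which encodes the polyadenylation factor subunit AtCPSF30, and makes neither of the 2 mRNAs of this gene. The complemented plants (4 arrays, 2 from each of the independent transgenic lines 5 and 6) are *oxt6* plants that carry a genomic fragment encoding only the smaller of the 2 proteins with the upstream sequence of the gene itself, so they still lack the larger one. The wild-type plants (3 arrays) are the Columbia parent, and all plants share that background. Each array is labelled a biological replicate and holds RNA pooled from several plants, chosen by the authors for its quality. Nothing in the sources says that the pools of 1 genotype were grown as separate batches, so the p-values measure the spread between these pools. In leaves, fewer cells of a type and less RNA per cell cannot be told apart.

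Values are intensities computed with PLIER by the authors, on a linear scale with a floor of 16. Median intensities lay between 40.9 and 60.5 over the 10 arrays, and 11 to 2920 probe sets per array sat at the floor. The 3'/5' signal, the mean log2 ratio of 3' over 5' control probe sets of actin, GAPDH and ubiquitin, which grows as RNA is shortened from its 5' end, was 2.24 ± 1.0 on *oxt6* arrays, 0.0393 ± 0.0694 on complemented arrays and 2.18 ± 0.18 on wild-type arrays (SD, n = 3, 4 and 3). Complemented arrays did not overlap those of either other genotype (exact two-sided permutation p = 0.0571 for each, the smallest that 4 against 3 arrays allow), and *oxt6* replicate 1, at 1.09, stood below *oxt6* replicates 2 and 3, at 2.88 and 2.75. In every comparison with complemented plants the transgene and this signal therefore cannot be told apart. The probe set for the larger At1g30460 RNA was too dim to be compared. It read 27.1 to 54.7 on *oxt6* arrays, 16.0 to 18.7 on complemented arrays and 38.7 to 71.2 on wild-type arrays. It thus did not separate *oxt6* from wild-type leaves, and the labels are used as given. The leaf gene RCA (rubisco activase) read 631 to 3351 on *oxt6* arrays, 6043 to 8232 on complemented arrays and 1140 to 1569 on wild-type arrays. No other leaf marker had a probe set with a gene named here. The root markers PYK10 and EXPA7, 1 of them bright enough to compare, were also measured. Their sum was 227.6 to 234.7 on *oxt6*, 270.3 to 350.5 on complemented and 119.3 to 186.1 on wild-type arrays. The cause of this difference was not tested.

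Of the 165 probe sets, 146 were among the 12453 brightest and entered the fit, and a call below means an adjusted p under 0.05 in limma over all 12453. Brightness was the mean log2 intensity over all arrays, so a probe set high only in complemented leaves could enter through them. In *oxt6* against wild-type leaves, 38 of the 146 rose and 18 fell, or 38.4% of them, against 28.7% of all probe sets (16.4% higher and 12.3% lower). In *oxt6* against complemented leaves, 36 were higher and 59 lower, or 65.1%, against a background of 69.3% (32.3% higher and 37.0% lower). In complemented against wild-type leaves, 63 were higher and 33 lower, or 65.8%, against 71.8% (38.0% higher and 33.8% lower). The median log2 differences of the 146 were -0.02, -0.19 and 0.31 in these 3 comparisons, beside -0.04, -0.03 and 0.04 over all probe sets. Both comparisons with complemented plants share the complemented arrays, and each also shares arrays with *oxt6* against wild-type. Counts in both comparisons with complemented plants lay near the background, so what follows turns on which classes and genes the calls fell in.

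**Figure D1:**
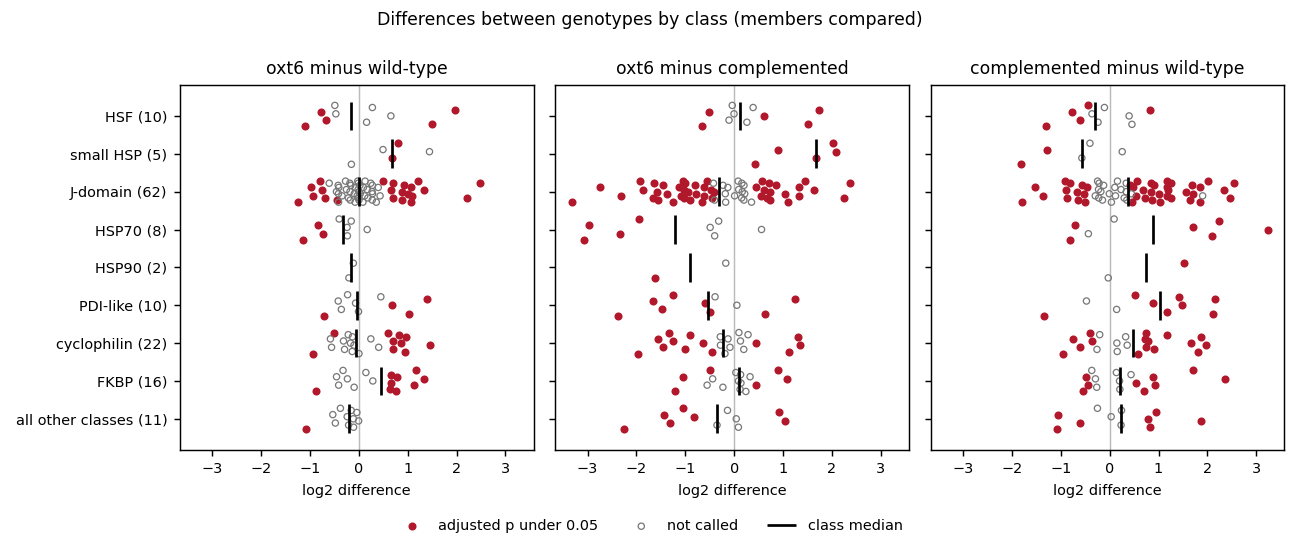
The log2 difference of each of the 146 probe sets compared, by class (number in brackets), in *oxt6* minus wild-type, *oxt6* minus complemented and complemented minus wild-type leaves. Filled points passed an adjusted p of 0.05, open points did not, and the bar is the class median. All 5 small HSPs lie right of 0 against complemented leaves, with a median of 1.67, and the HSP70 median there is -1.22.

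Among the HSFs, 10 of 11 were bright enough, and 2 rose and 3 fell in *oxt6* against wild-type leaves. Over all probe sets 16.4% rose and 12.3% fell. HSFA7A and HSFB2A rose, and they also stood above complemented leaves. HSFA3, HSF4 and HSFA8 fell.

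HSFA7A (AT3G51910), a class A factor whose own mRNA is induced by heat, read 94.6, 200.4 and 213 in *oxt6* leaves. It read 49.6 and 70.8 in complemented line 5, 56.3 and 47.3 in line 6, and 37.9, 40.4 and 42.0 in wild-type leaves. The *oxt6* arrays lay above every other array, with replicate 1 the lowest of them. The log2 difference was 1.96 ± 0.27 (SE) against wild-type (adjusted p = 1.5e-04) and 1.51 ± 0.25 against complemented leaves (adjusted p = 1.4e-04), or 3.90-fold and 2.85-fold. Complemented and wild-type leaves differed by 0.46 ± 0.25 (adjusted p = 0.12), although their arrays did not overlap.

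HSFB2A (AT5G62020), a class B factor without an activation domain, read 278, 326 and 326 in *oxt6* leaves. It read 78.1 and 119 in line 5, 93.3 and 83.9 in line 6, and 112, 67.5 and 171 in wild-type leaves. All *oxt6* arrays were again above all others, while complemented and wild-type arrays overlapped. The log2 differences were 1.49 ± 0.28 against wild-type (adjusted p = 0.0013) and 1.73 ± 0.26 against complemented leaves (adjusted p = 5.4e-05).

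HSFA3 (AT5G03720), a factor placed downstream of DREB2A in the heat and drought responses, read 30.6, 44.3 and 27.5 in *oxt6* leaves. It read 45.9 and 55.6 in line 5, 48.3 and 42.7 in line 6, and 72.3, 77.3 and 69.7 in wild-type leaves. It was lower in *oxt6* than in wild-type leaves on every array, by 1.10 ± 0.20 on the log2 scale (adjusted p = 0.0011), with complemented leaves between the others. Its difference from complemented leaves, -0.51 ± 0.19 (adjusted p = 0.027), was not called without complemented line 5 replicate 2 (-0.44), line 6 replicate 1 (-0.50), *oxt6* replicate 1 (-0.44) or *oxt6* replicate 3 (-0.37).

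HSF4 (AT4G36990, also known as HSFB1), a class B repressor of heat-induced genes, read 96.3, 85.2 and 70.5 in *oxt6* leaves. It read 79.1 to 86.3 on the 4 complemented arrays and 142, 105.5 and 199 in wild-type leaves. *oxt6* and complemented arrays overlapped and both lay below all wild-type arrays, with log2 differences of -0.78 ± 0.21 for *oxt6* (adjusted p = 0.014) and -0.78 ± 0.20 for complemented leaves (adjusted p = 0.0031). The *oxt6* call was lost without *oxt6* replicate 3 (-0.66) or wild-type replicate 3 (-0.55).

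HSFA8 (AT1G67970) read 307, 216 and 235 in *oxt6* leaves, 199 and 205 in line 5, 145 and 118 in line 6, and 436, 361.5 and 406 in wild-type leaves. The 3 genotypes did not overlap, with *oxt6* leaves in the middle. The log2 differences were -0.68 ± 0.23 in *oxt6* against wild-type (adjusted p = 0.038), 0.62 ± 0.21 in *oxt6* against complemented (adjusted p = 0.019) and -1.29 ± 0.21 in complemented against wild-type leaves (adjusted p = 1.1e-04). The first was lost when any one of *oxt6* replicate 2 or 3 or any wild-type array was left out, with values of -0.57 to -0.75. The second was lost without line 6 replicate 2 (0.46) or *oxt6* replicate 1 (0.47), and was 0.30 with line 5 alone.

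HSF3 (AT5G16820, HSFA1B), one of the constitutive factors that start the heat response, read 56.7, 45.4 and 49.2 in *oxt6* leaves. It read 74.5 and 80.7 in line 5, 92.3 and 72.6 in line 6, and 48.1, 54.6 and 34.3 in wild-type leaves. Complemented leaves stood above both other genotypes, by 0.82 ± 0.18 over wild-type leaves (adjusted p = 0.0013), and *oxt6* leaves were 0.66 ± 0.18 below them (adjusted p = 0.0061). HSFA1D, of the same subclass, had differences of -0.47, -0.11 and -0.36 in the 3 comparisons, in the order above, and none passed. HSF A4A and RHA1 (HSFA4C) passed in none of the 3. HSFC1, whose probe set also matched AT3G24518, passed only in complemented against wild-type leaves, at -0.45 ± 0.18 (adjusted p = 0.041), and lost that call without any one of the 4 complemented arrays or wild-type replicate 1 or 3 (-0.36 to -0.52 over all the left-out arrays).

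**Figure D2:**
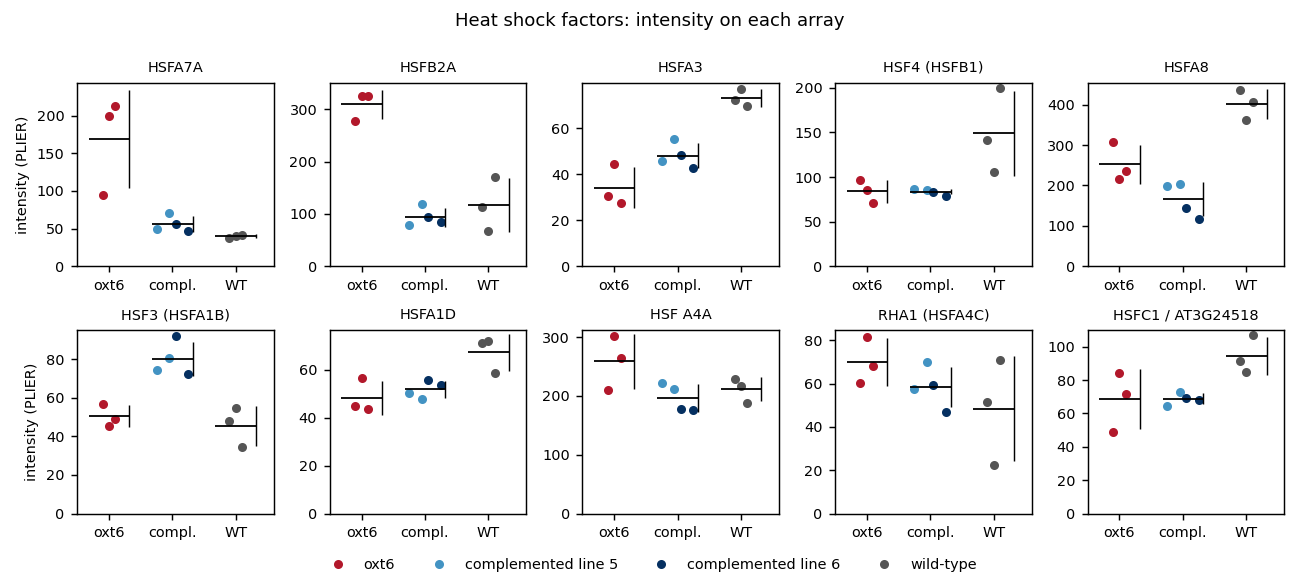
Intensity of the 10 heat shock factors compared, on each array (points), for *oxt6*, complemented (lines 5 and 6) and wild-type leaves. Horizontal bars are means and vertical bars are 1 SD. HSFA7A and HSFB2A have all *oxt6* points above all others, and HSFA3 has all *oxt6* points below all wild-type points.

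Small HSPs were the class with the highest median in *oxt6*, 0.68 against wild-type and 1.67 against complemented leaves. Of the 5 compared, 2 rose against wild-type leaves and all 5 against complemented leaves, and none fell. Over all probe sets 16.4% were higher against wild-type and 32.3% against complemented leaves. The 5 calls against complemented leaves stood under quantile and median scaling as well, and with the 3'/5' signal as a covariate 1 of them stood. The small HSP probe set too dim to compare, of AT4G16540 and AT2G03020, did not share this pattern. In a limma fit of all probe sets it differed by -0.61 in *oxt6* against complemented leaves (adjusted p = 0.052). In complemented against wild-type leaves it differed by 1.13 (adjusted p = 0.0011), and in *oxt6* against wild-type leaves by 0.52 (adjusted p = 0.23).

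HSP15.7-CI (AT5G37670), related to the class I cytosolic small HSPs, read 117, 196 and 205 in *oxt6* leaves. It read 38.7 and 43.6 in line 5, 37.2 and 36.2 in line 6, and 105, 83.8 and 99.2 in wild-type leaves. The 3 genotypes formed separate ranges, with *oxt6* highest and complemented leaves lowest. The log2 differences were 0.80 ± 0.21 against wild-type (adjusted p = 0.011) and 2.08 ± 0.20 against complemented leaves (adjusted p = 1.5e-06), and complemented leaves were 1.28 ± 0.20 below wild-type leaves (log2 difference -1.28, adjusted p = 6.1e-05). The *oxt6* rise over wild-type was not called without *oxt6* replicate 3 (0.66) or wild-type replicate 2 (0.71), and was 1.06 without *oxt6* replicate 1.

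AT2G19310, annotated as similar to HSP18.2, read 1165, 1664 and 1492 in *oxt6* leaves. It read 486 and 613 in line 5, 393 and 339 in line 6, and 1417, 1531 and 1828 in wild-type leaves. *oxt6* and wild-type arrays overlapped (log2 difference -0.15 ± 0.23, adjusted p = 0.66), and both lay above all complemented arrays. The difference was 1.67 ± 0.21 in *oxt6* against complemented (adjusted p = 1.6e-05) and -1.82 ± 0.21 in complemented against wild-type leaves (adjusted p = 7.8e-06).

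AT4G21870, annotated as related to the class P small HSPs, read 180.1, 356 and 324 in *oxt6* leaves. It read 136.5 and 134 in line 5, 35.0 and 31.3 in line 6, and 84.0, 66.3 and 180.2 in wild-type leaves. *oxt6* replicate 1 and wild-type replicate 3 read almost the same, and the log2 difference of 1.45 ± 0.55 was not called (adjusted p = 0.067). Against complemented leaves it was 2.02 ± 0.52 (adjusted p = 0.0035), and here the lines themselves differed, by 2.0 (line 5 minus line 6, adjusted p = 0.014). *oxt6* exceeded line 5 alone by 1.02 and line 6 alone by 3.02.

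HSP17.4-CIII (AT1G54050), the class III form, rose in *oxt6* leaves to 89.7, 110.2 and 100.4, against 66.8 to 78.1 on complemented arrays and 70.7, 59.3 and 56.3 in wild-type leaves. No array of *oxt6* overlapped another genotype, with differences of 0.68 ± 0.16 against wild-type (adjusted p = 0.0059) and 0.43 ± 0.15 against complemented leaves (adjusted p = 0.021). The second was lost without line 6 replicate 2 (0.38), *oxt6* replicate 2 (0.35) or *oxt6* replicate 3 (0.42). AT1G54850, annotated through similarity to heat shock proteins, read 68.9, 119 and 89.4 in *oxt6* leaves, against 40.7 to 51.1 on complemented arrays and 57.3, 57.5 and 78.7 in wild-type leaves. It passed against complemented leaves only, at 0.90 ± 0.20 (adjusted p = 0.0013), where the arrays did not overlap.

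HSP70s went the other way. None of the 8 compared was higher in *oxt6* in either comparison, 3 were lower against wild-type and 4 against complemented leaves. The shares called lower were 37.5% and 50.0%, beside 12.3% and 37.0% of all probe sets. In complemented against wild-type leaves 4 were higher and 2 lower, or 75.0% called, beside 71.8% of all probe sets. The HSP70 medians were -0.32, -1.22 and 0.90 in *oxt6* against wild-type, *oxt6* against complemented and complemented against wild-type leaves.

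HSC70-1 (AT5G02500), the abundant constitutive HSP70 of the cytosol, read 1503.5, 773 and 695 in *oxt6* leaves. It read 6056 and 6985 in line 5, 8907 and 7526 in line 6, and 1672, 1602 and 1392 in wild-type leaves. Complemented leaves stood far above both other genotypes, and *oxt6* replicate 1 lay within the wild-type range while *oxt6* replicates 2 and 3 lay below it. The log2 differences were -2.97 ± 0.24 in *oxt6* against complemented (adjusted p = 4.7e-07) and 2.23 ± 0.24 in complemented against wild-type leaves (adjusted p = 4.0e-06). The difference of *oxt6* from wild-type, -0.73 ± 0.26 (adjusted p = 0.047), was lost in 9 of the 10 fits that left out 1 array, and lowest in size, -0.52, without *oxt6* replicate 3. It was -1.08, and called, without *oxt6* replicate 1 alone.

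The same pattern of high complemented values held for 3 other probe sets. HSP91 with Hsp70-15, large HSP110-type members of the family that match 1 shared probe set, read 48.2, 26.1 and 18.8 in *oxt6* leaves, against 194 to 331 on complemented arrays and 36.0, 19.7 and 23.1 in wild-type leaves. Away from the complemented arrays it was as dim as members left out of the fit. It entered through its complemented values, so its place among the 4 calls depends on the group where it is high. The chloroplast form cpHsc70-1 averaged 76.6 ± 30.7 in *oxt6*, 374 ± 67.4 in complemented and 90.2 ± 33.3 in wild-type leaves (SD). The mitochondrial form mtHsc70-1 averaged 39.2 ± 16.0, 146 ± 27.2 and 45.2 ± 13.6 in the same order. In all 3 probe sets *oxt6* and wild-type arrays overlapped and every complemented array was above them. Their log2 differences in *oxt6* against complemented leaves were -3.07, -2.34 and -1.94, with adjusted p of 2.2e-06, 1.6e-05 and 5.0e-05. With the 3'/5' signal as a covariate, 2 of the 4 HSP70 calls in this comparison stood, HSC70-1 at -1.64 (adjusted p = 0.0046) and HSP91 with Hsp70-15 at -1.77 (adjusted p = 0.037). Both others were lost, cpHsc70-1 at -1.08 (adjusted p = 0.16) and mtHsc70-1 at -0.97 (adjusted p = 0.22). MTHSC70-2, a second mitochondrial form, had overlapping arrays in all 3 comparisons, with differences of -0.40, -0.49 and 0.09, and passed in none.

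The members that fell in *oxt6* against wild-type leaves beside HSC70-1 were HSP70-3 and cpHsc70-2, the second stromal form. HSP70-3 (AT3G09440), a cytosolic HSP70, read 91.8, 169.6 and 134 in *oxt6* leaves, against 128 to 188 on complemented arrays and 310.1, 345.5 and 211 in wild-type leaves. Every wild-type array was above every other array, and the log2 difference was -1.14 ± 0.25 for *oxt6* (adjusted p = 0.0042) and -0.82 ± 0.23 for complemented leaves (adjusted p = 0.0065). cpHsc70-2 differed by -0.84 ± 0.21 in *oxt6* against wild-type leaves (adjusted p = 0.0089), also without overlap. The gene listed as HSP70 (AT3G12580), a heat-inducible cytosolic form, had overlapping values in *oxt6* and wild-type leaves (log2 difference -0.16 ± 0.28, adjusted p = 0.71). Its difference in complemented against wild-type leaves, -0.71 ± 0.26 (adjusted p = 0.024), was lost in 5 of the 10 fits that left out 1 array (line 5 replicates 1 and 2, line 6 replicate 2, wild-type replicates 1 and 2), with values of -0.63 to -0.92 over the 10.

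Other ATP-driven chaperones did not pass in *oxt6* against wild-type leaves. HSP81-3 with Hsp81.4, constitutive cytosolic HSP90s that share a probe set, read 222, 232 and 223 in *oxt6* leaves, 549 and 579 in line 5, 848 and 891 in line 6, and 256, 261 and 216.5 in wild-type leaves. *oxt6* lay 1.63 ± 0.19 below complemented leaves (log2 difference -1.63, adjusted p = 8.9e-06), and line 6 was above line 5 on both arrays. HSP90.1 (AT5G52640), the heat-inducible HSP90, read 32.1 to 58.4 in *oxt6*, 43.2 to 59.0 in complemented and 46.5 to 55.2 in wild-type leaves, and passed in no comparison. The mitochondrial chaperonin HSP60 averaged 71.5 ± 19.8 in *oxt6*, 205 ± 79.6 in complemented and 97.6 ± 9.04 in wild-type leaves, with line 5 replicate 2, at 93.5, within the wild-type range. Its difference in *oxt6* against complemented leaves was -1.44 ± 0.31 (adjusted p = 0.0011). CLPC1, the HSP100 of the chloroplast stroma, passed in none of the 3.

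**Figure D3:**
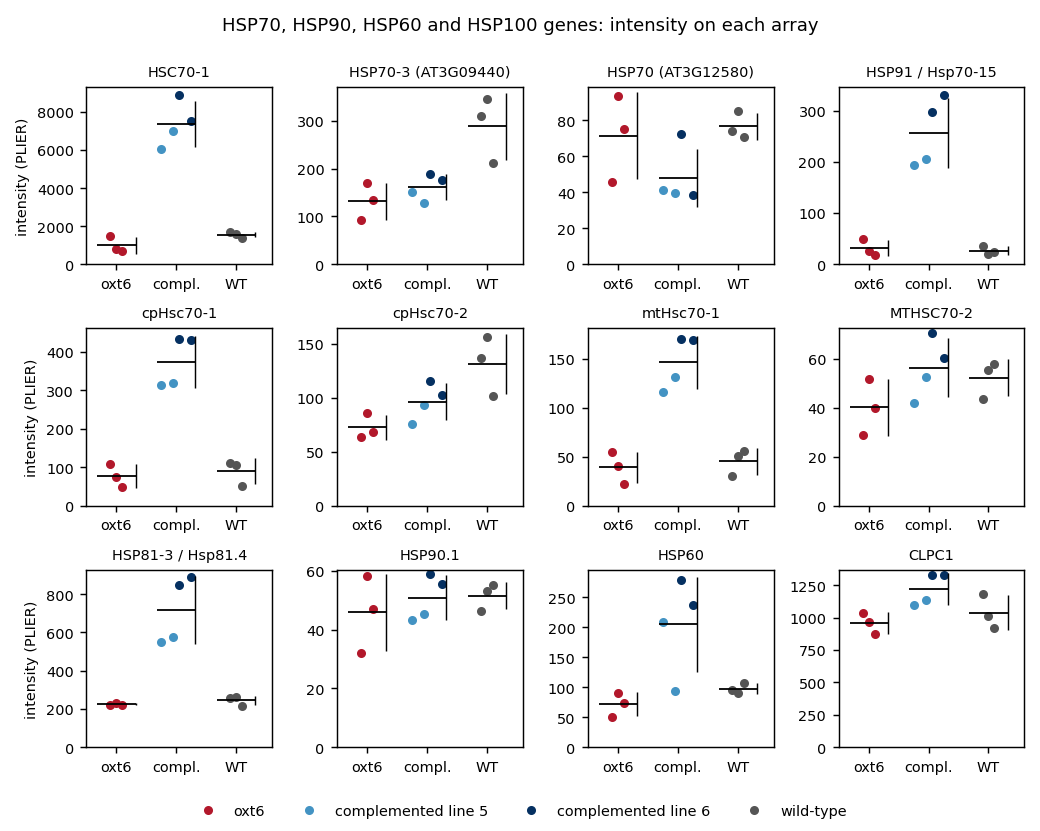
Intensity of the HSP70, HSP90, HSP60 and HSP100 probe sets compared, on each array (points), in *oxt6*, complemented and wild-type leaves, with means and 1 SD. HSC70-1, HSP91 / Hsp70-15, cpHsc70-1, mtHsc70-1 and HSP81-3 / Hsp81.4 have all complemented points above all others, and HSP70-3 has all wild-type points above all others.

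J-domain proteins made up the most numerous class. Of 62 compared, 15 rose and 7 fell in *oxt6* against wild-type leaves, with a median of 0.01. Against complemented leaves 17 were higher and 29 lower, and in complemented against wild-type leaves 29 were higher and 13 lower. The shares called in these 3 comparisons were 35.5%, 74.2% and 67.7%, beside 28.7%, 69.3% and 71.8% of all probe sets. Both shares with complemented plants thus lay near the background.

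AT5G16650 read 422, 602 and 554 in *oxt6* leaves. It read 102 and 109 in line 5, 104.5 and 88.0 in line 6, and 128, 106 and 102 in wild-type leaves. *oxt6* stood alone and the other genotypes overlapped, with log2 differences of 2.21 ± 0.18 against wild-type (adjusted p = 4.0e-06) and 2.36 ± 0.17 against complemented leaves (adjusted p = 1.9e-07). Both also passed with the 3'/5' signal as a covariate, at 2.20 and 1.81.

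AT5G59610 had the largest rise over wild-type leaves of all 146. It read 143, 196 and 198 in *oxt6* leaves, 66.2 to 74.9 on complemented arrays and 42.7, 34.5 and 19.5 in wild-type leaves. The 3 genotypes did not overlap, and complemented leaves stood between, at 1.16 ± 0.23 over wild-type leaves (adjusted p = 4.6e-04). The log2 difference of *oxt6* was 2.49 ± 0.24 against wild-type (adjusted p = 1.3e-05) and 1.33 ± 0.23 against complemented leaves (adjusted p = 1.7e-04).

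J8 (AT1G80920), a small chloroplast J-domain protein, read 3482, 3567 and 3214 in *oxt6* leaves. It read 2179 and 2263 in line 5, 1899.8 and 1906 in line 6, and 1906, 1742 and 1291 in wild-type leaves. All *oxt6* arrays were above the rest, with differences of 1.07 ± 0.18 against wild-type (adjusted p = 5.9e-04) and 0.73 ± 0.17 against complemented leaves (adjusted p = 0.0014). J11 (AT4G36040), another small chloroplast form, moved the opposite way, with 1987, 819 and 813 in *oxt6* leaves, 3708 to 4321 on complemented arrays and 2016 to 2342 in wild-type leaves. Its log2 difference of -0.98 ± 0.28 against wild-type leaves (adjusted p = 0.019) was -1.41 without *oxt6* replicate 1 and was not called without *oxt6* replicate 2 (-0.77), *oxt6* replicate 3 (-0.76), wild-type replicate 1 (-0.98) or wild-type replicate 2 (-0.92).

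AT3G09700 and AT2G35795, which encode TIM14-like J-domain subunits of the mitochondrial import motor, both rose. AT3G09700 averaged 116 ± 35.2 in *oxt6*, 35.8 ± 3.87 in complemented and 53.6 ± 10.9 in wild-type leaves, and AT2G35795 differed by 0.93 ± 0.17 against wild-type (adjusted p = 0.0012) and 1.44 ± 0.16 against complemented leaves (adjusted p = 4.9e-06). AT2G33735 rose by 1.10 ± 0.25 against wild-type (adjusted p = 0.0058) and 1.32 ± 0.24 against complemented leaves (adjusted p = 2.5e-04). AT4G10130, which encodes a DPH4-like protein of diphthamide synthesis, was 1.20 ± 0.22 above wild-type leaves (adjusted p = 0.0011) and overlapped complemented leaves.

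P58IPK (AT5G03160), a co-chaperone of the HSP70 in the endoplasmic reticulum, showed the largest fall against wild-type leaves of all 146. It read 83.4, 95.3 and 90.4 in *oxt6* leaves, 43.2 and 70.5 in line 5, 72.5 and 62.4 in line 6, and 195, 216 and 230.2 in wild-type leaves. All 3 genotypes were separate, with wild-type leaves highest and complemented leaves lowest. The log2 differences were -1.24 ± 0.19 for *oxt6* (adjusted p = 4.0e-04) and -1.79 ± 0.18 for complemented leaves (adjusted p = 2.6e-06), both against wild-type. In *oxt6* against complemented leaves it was 0.55 ± 0.18 (adjusted p = 0.016), and this was not called without *oxt6* replicate 2 (0.50). AT3G13310 and AT2G17880 also fell in *oxt6*, by 0.95 and 0.75 on the log2 scale.

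Several J-domain genes differed mainly through the complemented plants. The probe set of AT5G23240 and AT5G23235 had the widest gap of all 146 between *oxt6* and complemented leaves. It read 296, 217 and 181 in *oxt6* leaves, 2020.0 and 2119 in line 5, 2511 and 2548 in line 6, and 394, 349 and 442 in wild-type leaves. The log2 differences were -3.33 ± 0.19 in *oxt6* against complemented (adjusted p = 5.9e-08), 2.54 ± 0.19 in complemented against wild-type (adjusted p = 4.4e-07) and -0.79 ± 0.20 in *oxt6* against wild-type leaves (adjusted p = 0.011, not called without *oxt6* replicate 3, at -0.63). AT2G42750 averaged 57.4 ± 31.8 in *oxt6*, 355 ± 41.4 in complemented and 69.3 ± 6.38 in wild-type leaves. AT5G05750 averaged 148 ± 55.5 in *oxt6*, 312 ± 29.5 in complemented and 57.5 ± 18.5 in wild-type leaves, so that *oxt6* stood in the middle, and all 3 differences were called. AT3G62190 averaged 909.5 ± 239 in *oxt6*, 187 ± 25.3 in complemented and 479 ± 14.7 in wild-type leaves, with *oxt6* highest and again all 3 called.

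AT1G16680 read 16.1, almost at the floor, on complemented line 5 replicate 1 and 534, 717 and 592 on the other complemented arrays. *oxt6* leaves read 43.4 to 58.7 and wild-type leaves 63.2 to 69.7. With all arrays the log2 difference was -2.31 ± 0.95 in *oxt6* against complemented leaves (adjusted p = 0.045). It was -3.60 without that 1 array and was not called when any other array was left out in its place (-1.80 to -2.43). AT1G21080 and AT3G11450 were also high in complemented leaves, at 1.85 ± 0.20 and 2.0 ± 0.15 over wild-type leaves (adjusted p = 4.4e-06 and 4.7e-07). AT1G62970 was lower there, at -0.91 ± 0.20 (adjusted p = 0.0011).

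**Figure D4:**
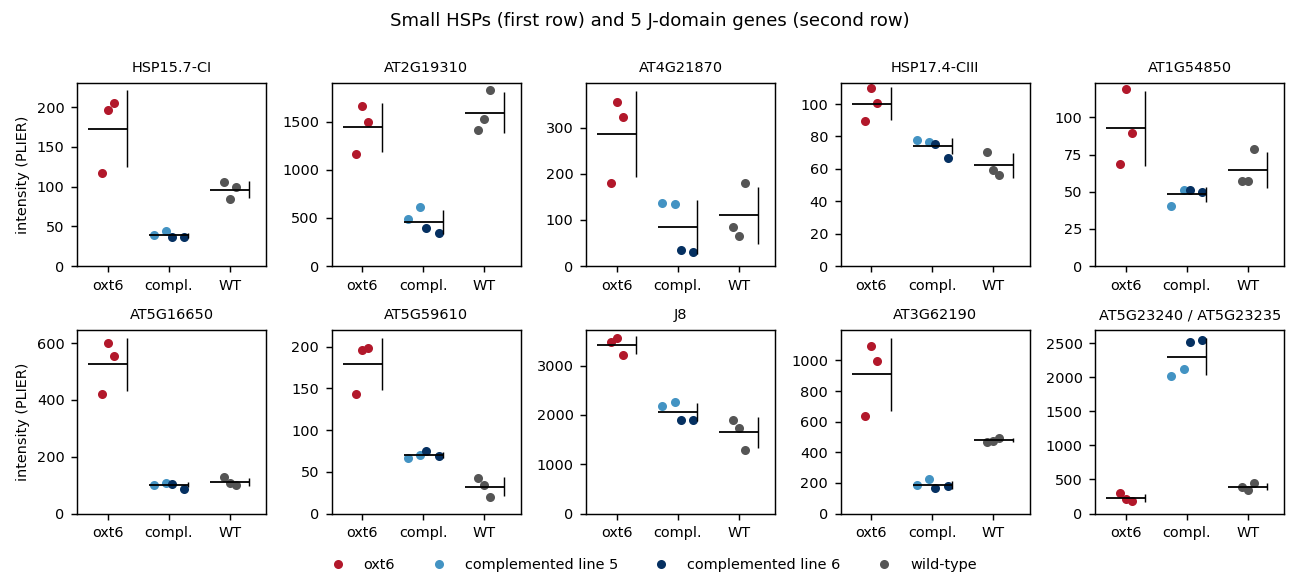
Intensity of the 5 small HSPs compared (first row) and of 5 J-domain probe sets (second row), on each array (points), in *oxt6*, complemented and wild-type leaves, with means and 1 SD. AT5G16650, AT5G59610 and J8 have all *oxt6* points above all others. AT4G21870 reads 134 and 136.5 in complemented line 5 and 31.3 and 35.0 in line 6.

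Foldases of the list were protein disulfide isomerases and peptidyl-prolyl isomerases, which help form disulfide bonds and turn proline bonds. Of 10 PDI-like members compared, 3 rose and 1 fell in *oxt6* against wild-type leaves, beside 16.4% and 12.3% of all probe sets. PDIL5-1 read 301.5, 371 and 389 in *oxt6* leaves, 121 to 162 on complemented arrays and 142.5, 131 and 129 in wild-type leaves. It rose without overlap, by 1.39 ± 0.17 over wild-type (adjusted p = 8.0e-05) and 1.24 ± 0.16 over complemented leaves (adjusted p = 1.8e-05). PDIL1-6 and PDIL5-2 rose against wild-type leaves by 1.03 and 0.67, PDIL5-2 not without wild-type replicate 2 (0.57), and PDIL2-2 fell by 0.72, though not without wild-type replicate 3 (-0.56). The catalytic isomerases PDIL1-1 and PDIL1-4 were high in complemented leaves, at 2.15 ± 0.26 and 2.1 ± 0.21 over wild-type leaves (adjusted p = 1.0e-05 and 2.4e-06), as was PDIL2-3 at 1.47 ± 0.20 (adjusted p = 2.2e-05).

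Cyclophilins and FKBPs rose more often than they fell in *oxt6* against wild-type leaves. Of 22 cyclophilins 8 rose and 2 fell, and of 16 FKBPs 8 rose and 1 fell, with an FKBP median of 0.46. The shares that rose were 36.4% and 50.0%, and those that fell 9.09% and 6.25%. Over all probe sets 16.4% rose and 12.3% fell. The cytosolic cyclophilin ROC3 averaged 5217 ± 551 in *oxt6*, 2385 ± 141 in complemented and 2916 ± 702 in wild-type leaves, and ROC5 rose by 0.94 ± 0.15 over wild-type (adjusted p = 4.9e-04) and 1.35 ± 0.14 over complemented leaves (adjusted p = 3.2e-06). The largest cyclophilin rise over wild-type leaves was that of AT1G26940, at 1.45 ± 0.20 (adjusted p = 1.4e-04), whose *oxt6* and complemented arrays overlapped. AT2G38730 rose by 0.70 over wild-type and 1.30 over complemented leaves. AT4G17070 and AT5G35100 fell against wild-type leaves, by 0.93 and 0.51, and AT5G35100 did so with adjusted p = 0.038 and not in 5 of the 10 fits that left out 1 array (line 6 replicate 1, *oxt6* replicates 1 and 3, and wild-type replicates 1 and 2, at -0.44 to -0.60 over the 10).

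Among the FKBPs, AT3G55520 read 127, 139 and 149 in *oxt6* leaves, 99.1 to 105 on complemented arrays and 57.0, 55.1 and 50.7 in wild-type leaves. The genotypes were separate, with log2 differences of 1.33 ± 0.14 against wild-type (adjusted p = 2.5e-05) and 0.45 ± 0.13 against complemented leaves (adjusted p = 0.0085). AT2G43560 and AT1G73655 rose by 1.17 ± 0.15 and 1.14 ± 0.23 over wild-type leaves (adjusted p = 1.1e-04 and 0.0023), and AT1G73655 averaged 211 ± 21.6 in *oxt6*, 495 ± 62.7 in complemented and 98.9 ± 31.9 in wild-type leaves. FKBP15-1 and AT3G60370 rose against both, by 0.78 and 0.64 over wild-type and 1.07 and 0.91 over complemented leaves. AT5G13410 fell by 0.87 against wild-type leaves. FKBP53, PAS1 and FKBP15-2 were lower in complemented than in wild-type leaves, at -0.54, -0.49 and -0.44. PAS1 lost that call without line 5 replicate 1 or 2, line 6 replicate 2 or wild-type replicate 3 (-0.30 to -0.58 over the 10 fits), and FKBP15-2 lost it in 7 of the 10, without any complemented array, *oxt6* replicate 2 or 3, or wild-type replicate 3 (-0.20 to -0.59).

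Of the cyclophilins named for being high in complemented leaves, ROC4 and Pnsl5 act in the chloroplast. ROC4, of the stroma, differed by -1.46 ± 0.22 in *oxt6* against complemented (adjusted p = 5.6e-05) and -0.56 ± 0.23 in *oxt6* against wild-type leaves (adjusted p = 0.092). Pnsl5, a thylakoid cyclophilin of the NDH complex, differed by -1.97 ± 0.25 against complemented leaves (adjusted p = 1.4e-05) and overlapped wild-type leaves. With the 3'/5' signal as a covariate neither passed against complemented leaves, at -0.85 for ROC4 (adjusted p = 0.16) and -0.64 for Pnsl5 (adjusted p = 0.19). CYP38, a cyclophilin of the thylakoid lumen that lies outside the rule for named genes, was lower in complemented than in wild-type leaves, at -0.36 ± 0.15 (adjusted p = 0.042). ROC7 and CYP5 were high in complemented leaves, at 1.80 and 1.87 over wild-type leaves, as was the FKBP AT4G26555 at 1.71, and these 3 also passed with the covariate, at 1.27, 1.43 and 1.72.

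The 3 SMAX1-like proteins resemble HSP100 ATPases in sequence and act in karrikin and strigolactone signalling rather than as known chaperones. None passed in *oxt6* against wild-type leaves. AT4G30350 averaged 33.0 ± 13.7 in *oxt6*, 152 ± 21.0 in complemented and 40.9 ± 8.88 in wild-type leaves, whereas AT2G29970 differed by 1.05 ± 0.20 in *oxt6* against complemented (adjusted p = 4.6e-04) and by -1.05 ± 0.20 in complemented against wild-type leaves (adjusted p = 4.2e-04). AT5G57710 fell by 0.62 in complemented against wild-type leaves. Of the lipase class 3 genes, AT5G37710 was 0.92 ± 0.17 higher in *oxt6* than in complemented leaves (adjusted p = 3.2e-04) and AT4G00500 passed in no comparison. AT2G20920, annotated as similar to CDF1 (cell growth defect factor 1), read 802, 560.1 and 509.8 in *oxt6* leaves, 1344 to 1718 on complemented arrays and 1259.6, 1304 and 1329 in wild-type leaves. All *oxt6* arrays were below the rest, with differences of -1.08 ± 0.20 against wild-type (adjusted p = 0.0011) and -1.32 ± 0.18 against complemented leaves (adjusted p = 3.1e-05). AT3G51140 and AT4G36980 passed only through the complemented plants, at -1.06 and -0.83 in *oxt6* against complemented leaves.

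The study called a gene AtCPSF30-dependent when it differed at least 2-fold between *oxt6* and wild-type leaves, differed the same way between *oxt6* and complemented leaves, and was within 2-fold between complemented and wild-type leaves or lay beyond wild-type. With limma calls in these rules, 10 of the 146 were dependent, or 8 higher and 2 lower, against 6.89% of all probe sets (5.04% higher and 1.85% lower). The 8 were HSFA7A, HSFB2A, AT5G16650, AT2G33735, AT3G09700, J8, PDIL5-1 and AT3G55520, and the 2 were HSFA3 and AT2G20920. The count of 10 lay near the share over all probe sets. No small HSP, HSP70 or HSP90 was among them, but only 5, 8 and 2 of these were compared. With so few members, their absence says nothing about these classes. The number was 17 without *oxt6* replicate 1, 6 without *oxt6* replicate 3, and 1 with the 3'/5' signal as a covariate. Without the 2-fold limits, *oxt6* leaves stood above complemented and wild-type leaves alike at 20 of the 146, against 9.36% of all probe sets, and below them at 8, against 5.24%. A further 25 passed in no comparison, against 15.9%.

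*oxt6* replicate 1 bore on many single values above. Without it, 42 of the 146 rose and 19 fell against wild-type leaves, 40 were higher and 52 lower against complemented leaves, and 67 were higher and 38 lower in complemented against wild-type leaves. The share over all probe sets in that fit is not given here, so these counts do not show whether the members moved more than the background. With the 3'/5' signal as a covariate, the counts were 40 and 26 against wild-type, 9 and 31 against complemented, and 44 and 5 in complemented against wild-type leaves, beside 37.1%, 24.8% and 33.0% of all probe sets called. Of the 56 calls in *oxt6* against wild-type leaves 56 stood in that fit, and of the 95 and 96 calls in the comparisons with complemented leaves 34 and 42 did. The first number was nearly fixed, since the signal barely differed between *oxt6* and wild-type arrays. In the others the signal follows genotype, so a kept or lost call does not separate it from the transgene. HSFA7A differed by 0.13 (adjusted p = 0.80) and HSFB2A by 1.18 (adjusted p = 0.13) in *oxt6* against complemented leaves there, while both passed against wild-type leaves, at 1.93 and 1.48. HSF3, AT2G29970, AT2G42750 and PDIL1-1 likewise did not pass against complemented leaves in that fit, while HSP15.7-CI, the HSP81-3 with Hsp81.4 probe set, AT4G30350 and the AT5G23240 with AT5G23235 probe set did, at 1.09, -1.56, -3.72 and -2.68.

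Gene span, the distance between the ends of the annotated gene with introns (RefSeq, TAIR10.1), was not used to choose the genes and ran with the change in *oxt6*. Over the 139 members compared that have 1 locus, Spearman's rho was -0.39 in *oxt6* against wild-type, -0.31 in *oxt6* against complemented and 0.098 in complemented against wild-type leaves. Over 6760 probe sets with 1 locus in the array annotation the values were -0.095, -0.41 and 0.35. Of the 46 members with the shortest genes, 0.834 to 2.03 kb, 24 rose and 5 fell in *oxt6* against wild-type leaves, with a median of 0.62. Of the 46 with the longest, 3.06 to 12.3 kb, 4 rose and 4 fell, with a median of -0.19. Over all probe sets, whatever the span, 16.4% rose and 12.3% fell. Short and long genes off the list were not counted apart, so these counts cannot be set against other genes of like span. The genes share arrays and families and are not independent, and the part of the 3'/5' signal in this relation was not tested.

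**Figure D5:**
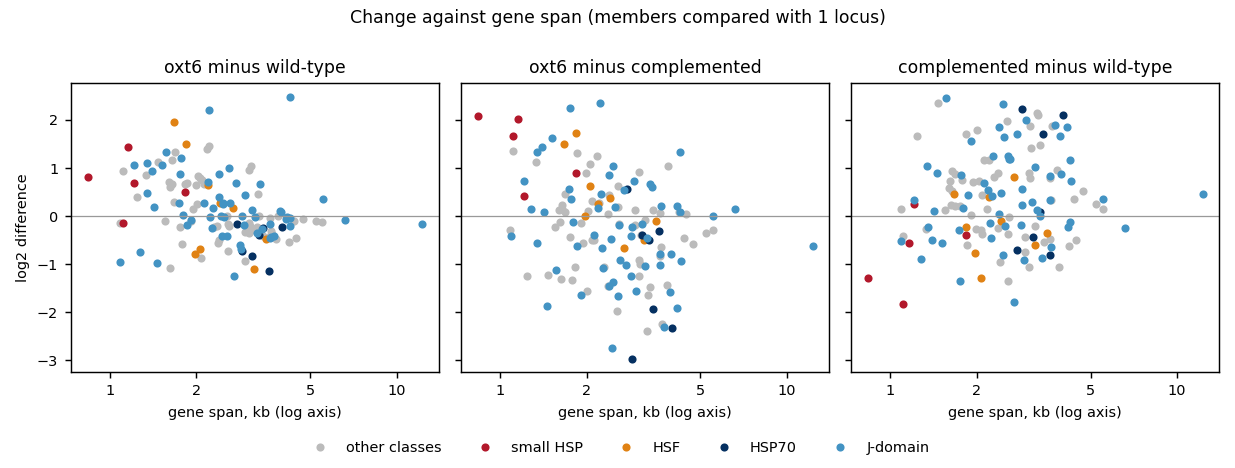
The log2 difference of each member with 1 locus against the span of its gene in kb (log axis), in *oxt6* minus wild-type, *oxt6* minus complemented and complemented minus wild-type leaves, coloured by class. In the first panel most points above 1 lie at spans under 3 kb, and the HSP70s lie at or below 0.

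Of the 165, 33 were also on the study's list of genes induced by heat shock. Among the 31 of them compared, 12 rose and 3 fell in *oxt6* against wild-type leaves, or 48.4%, with a median of 0.17. The other 115 gave 26 and 15, or 35.7%, with a median of -0.07. Over all probe sets the share was 28.7% (16.4% higher and 12.3% lower). The 12 were HSFA7A, HSFB2A, HSP15.7-CI, HSP17.4-CIII, J8, AT1G77930, AT1G01940 and the FKBPs AT3G55520, AT2G43560, AT1G73655, AT4G26555 and PnsL4, and the 3 were HSF4, AT3G13310 and AT2G20920. Against complemented leaves, 7 of the 31 were higher and 10 lower, or 54.8%, below the 69.3% of all probe sets.

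Of 44 further genes of the heat response outside the study's list, 11 had a probe set with a gene named here and 4 were bright enough to compare. HSP70-2, a cytosolic HSP70, averaged 41.8 ± 22.4 in *oxt6*, 51.2 ± 9.31 in complemented and 204 ± 43.1 in wild-type leaves, and fell by 2.43 on the log2 scale in *oxt6* against wild-type leaves (adjusted p = 3.4e-04). The HSP70-HSP90 organizing proteins HOP1 and HOP2 and the HSP90 co-chaperone P23-1 did not pass in that comparison, at 0.19, -0.46 and -0.08. The 7 dim ones, among them HSP17.6B, HSP17.6C, HSP22.0 and HSP23.5, read between 16.0 and 68.7 on all arrays.

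The 19 members too dim for the comparison included HSFA5, the HSP70s AT4G16660 and AT1G11660, the small HSP probe set of AT4G16540 and AT2G03020, 8 J-domain proteins and ROF1. In a fit of all 22746 probe sets other than controls, 1 of the 19 rose and none fell in *oxt6* against wild-type leaves (limma, adjusted p under 0.05), against 8.25% and 6.26% of all. It was the J-domain probe set of AT5G37750 and AT5G37440, at 66.5 ± 16.6 in *oxt6* and 33.5 ± 8.56 in wild-type leaves. In *oxt6* against complemented leaves 1 of the 19 was higher and 13 were lower, against 24.3% and 23.9% of all in that fit. In complemented against wild-type leaves 12 were higher and none lower, against 25.0% and 30.4%. ROF1, a heat-induced FKBP that binds HSP90, averaged 25.3 ± 5.94 in *oxt6*, 105 ± 6.79 in complemented and 24.0 ± 5.77 in wild-type leaves. AT1G11660 read 20.6 to 31.5 in *oxt6*, 82.4 to 100.2 in complemented and 16.0 to 25.2 in wild-type leaves.

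Complemented lines 5 and 6 differed at 3 of the 146, against 4.26% of all probe sets. These were AT4G21870, described above, the FKBP AT3G10060, at 81.4 and 87.4 in line 5 and 160.1 and 161 in line 6, and the J-domain probe set of AT1G72070 and AT1G72060, at 961.5 and 1088 in line 5 and 573 and 559 in line 6. Each pair of arrays was far closer within a line than between the lines. With 2 arrays a line the count was unstable, and it was 0 to 9 when 1 array was left out.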

How the data were processed

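RNA from leaves was hybridised to ATH1 arrays, and the authors computed the deposited intensity values with PLIER in ArrayAssist, on a linear scale with a floor of 16 (no version is given in the sources used here). Each array is 1 sample, and counts of reads do not apply. The authors took 2-fold changes that passed t-tests at p under 0.01.

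Here 1 was added to each intensity before log2, the 64 control probe sets were set aside, and the 12453 brightest of the rest, as many as the study's total set, were compared with limma 3.58.1 in R 4.3.3 (1 mean per genotype, variance trend, Benjamini-Hochberg adjusted p under 0.05). Array normalization was kept as deposited. The fit was tested on simulated data. Alternatives covered the offset, the filter, scaling, the test, blocks, weights, a 3'/5' covariate and left-out arrays. The list and its loci came from the study's supplement, and symbols from RefSeq, which held all 165 first loci. No protein or promoter sequences were used. The array annotation table held 89 of the 165, each with the same locus. Single-value tests are exact permutation tests.

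The members, classes and further lists were chosen with earlier results of these data known. Named are every HSF, HSP70, HSP90, small HSP, HSP60, HSP100, SMAX1-like, lipase and other listed gene, every dependent gene, and up to 5 J-domain or 3 cyclophilin, FKBP or PDI-like genes with the largest called change per direction and comparison. AT1G77930, AT1G01940, PnsL4, CYP38, AT3G10060, RCA, PYK10, EXPA7 and the dim genes lie outside that rule and were named after their values were seen. The number of arrays limits the precision. The main fit did not pair arrays by replicate number. Deviations from group means correlated at -0.21 to 0.18 in 13 same-numbered pairs of groups, with 5 above 0.1. Deviations within a group cancel, which partly forces these signs, so the check cannot settle whether arrays were paired.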

Additional observations from a re-analysis of the deposited data

Results flagged for a closer look

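Lines 5 and 6 differed under the same contrast with *oxt6* at 3 probe sets (limma with 1 mean per line). AT4G21870 differed by 2.0 on the log2 scale, line 5 minus line 6 (adjusted p = 0.014), AT1G72070 with AT1G72060 by 0.85 (adjusted p = 0.030) and AT3G10060 by -0.92 (adjusted p = 0.027).

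Among the 4 complemented arrays, 1 array lay far from the other 3 at 6 of the 82 named genes compared, and chance gives about 1 in 20. On line 5 replicate 1, AT1G16680 read 16.1, against 534 to 717 on the others, and AT1G54850 read 40.7, against 49.9 to 51.1. On line 5 replicate 2, PDIL5-1 read 121, against 154 to 162, and PDIL2-2 read 49.1, against 33.9 to 35.8. On line 6 replicate 1, FKBP15-2 read 247, against 214 to 218, and HSP70 (AT3G12580) read 72.1, against 38.3 to 41.3.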

How the results depend on the processing

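The number of arrays sets the precision, and dim probe sets near the floor of 16 carry only part of a change. With the 3'/5' signal as a covariate, *oxt6* against complemented leaves gave 40 called members, complemented against wild-type 49, the dependent group 1 and line 5 against line 6 9. Over the 8000 brightest probe sets, where fewer members enter, *oxt6* against complemented gave 63, the dependent group 6 and the lines 5. With array weights, *oxt6* against wild-type gave 88, the dependent group 23 and the lines 26. The methods' t-test gave 23 called members in *oxt6* against wild-type after Benjamini-Hochberg adjustment and 27 at an unadjusted p under 0.01, with 6 dependent members either way, and 0 and 10 for the lines. For the lines, an adjusted p under 0.01 left 0 and a fit of their 4 arrays alone gave 31. The alternatives for the lines were chosen after seeing the data. The cause of these shifts was not tested.

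Leaving out each array in turn gave 42 to 61 called members in *oxt6* against wild-type, 85 to 98 in *oxt6* against complemented, 83 to 105 in complemented against wild-type, 6 to 17 dependent and 0 to 9 between the lines. The replicate block gave 51, 90 and 90 called members, 9 dependent and 3 between the lines. Same-numbered arrays, in 13 pairs of groups, correlated at -0.21 to 0.18, which does not settle whether they were paired. Median scaling moved the median of all probe sets to 0.07 in *oxt6* against wild-type and to 0.17 in complemented against wild-type leaves.

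Of 4009 alternative values of called differences of the named genes, 3671 kept direction and call, 330 lost the call and 8 changed sign. Those 8 were all under the 3'/5' covariate. In *oxt6* against complemented leaves they were PDIL2-2 (-0.087), AT5G05750 (0.0868) and AT3G13310 (0.0762), and in complemented against wild-type leaves PAS1 (0.24), J11 (-0.68), HSP70 (0.20), HSFC1 with AT3G24518 (0.41) and AT3G09700 (0.49). Of 2066 values of differences that were not called, 150 passed and 2 passed with the other sign, both with array weights in *oxt6* against wild-type leaves, Pnsl5 (-0.42) and HSP91 with Hsp70-15 (-0.57).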
